A study of Arabidopsis thaliana with 36 samples.

Results

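Rosette buds were compared with sink leaves of Arabidopsis thaliana Col-0 plants labelled as a triple mutant of S1 group bZIP transcription factors. The comparison uses 6 of the series' 36 libraries, 3 of triple mutant rosette buds and 3 of triple mutant sink leaves, chosen by the genotype in their column names and the tissue of the tables that hold them. The 3 wild-type bud libraries and the 3 wild-type sink leaf libraries served as the reference for the difference between organs. All plants grew untreated on soil with 16 h of light and 8 h of darkness a day, at 60% humidity and 100 µmol per square metre and second until the primary inflorescence began to flower. The labels name neither the mutated genes nor the alleles, plant ages or number of plants per sample, and they call the replicates biological without naming separate plants. The p-values therefore measure the spread between these samples, which may be partly technical.

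Rosette buds are axillary buds in the axils of rosette leaves. Each holds a small meristem with leaf primordia and can stay closed or grow out into a branch. Sink leaves are young leaves that still import sugar, and leaf cells switch from dividing to photosynthesising as they mature from the tip downwards. The S1 bZIP proteins are transcription factors that pair with C group bZIP partners and are known for tying sugar and energy status to amino acid metabolism. The comparison asks how genes of growth, branching and carbon and nitrogen partitioning differed between the buds and the leaves labelled as sink leaves in the mutant.

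Levels below are in CPM, the count of a gene as a share of its library's total, scaled by library over the 12 libraries. Differences are log2(buds / sink leaves) ± SE from an edgeR quasi-likelihood fit of the 6 mutant libraries, so a positive value means higher in buds. A gene "rose" or "fell" in buds where its Benjamini-Hochberg adjusted p was under 0.05. The mutant bud libraries held 20011517, 20095246 and 21063873 counts, and the mutant leaf libraries 21165872, 19480031 and 20726342. Loci of the chloroplast and mitochondrial genomes took 0.495% to 0.559% of the counts in mutant buds, against 1.05% to 1.87% in mutant leaves. The bud label held against its markers. Summed over 13 axillary meristem and boundary genes, buds had 126 to 144 CPM and leaves 30.5 to 31.5 CPM, and STM and LAS were at 0 in all leaf libraries. Leaf libraries were in turn rich in photosynthesis genes and in the sugar export genes SWEET11 and SWEET12, as given below. These genes do not mark an importing leaf, and whether the leaves still imported sugar was not tested. Anther and pollen markers were low in both organs: the 10 genes summed to 17.2 to 20.3 CPM in buds and 8.28 to 12 CPM in leaves. The 11 floral organ identity genes summed to 45.6 to 51.2 CPM in buds and 30.8 to 34.7 CPM in leaves. Of the 9 tested 6 rose in buds, so early floral transcripts were present there, as given below. In bulk tissue, fewer cells of a type and less RNA per cell cannot be told apart.

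The organs differed over most of the transcriptome. Of 19762 genes tested in the mutant, 6317 rose in buds (32.0%) and 6152 fell (31.1%). In all 63.1% of genes were called. Changes of at least 2-fold were found in 30.1%, 2789 rising genes (14.1%) and 3161 falling genes (16.0%). The median log2 difference of all tested genes was 0.04. Scaling by the upper quartile instead gave 8463 higher and 4844 lower genes and a median of 0.24, so small differences depend on the scaling. Libraries of both organs did not overlap for 7290 genes that were higher in buds (36.9%) and 6510 that were lower (32.9%). The first principal component carried 79.2% of the variance over the 12 libraries and separated buds from leaves in both genotypes.

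The S1 bZIP genes themselves were counted in every mutant library, and 2 of the 5 rose in buds while 2 fell. bZIP2 had 95.9, 89.8 and 83.5 CPM in buds, against 90.1, 92.5 and 84.5 CPM in sink leaves, and the organs overlapped. bZIP53 had 45.5, 44.4 and 53.6 CPM in buds, against 51.5, 71.5 and 76.5 CPM in sink leaves. Only the lowest leaf library reached into the range of the buds (-0.49 ± 0.15, adjusted p = 0.018). bZIP11 had 13.2, 19.8 and 16.9 CPM in buds, against 5.75, 13.0 and 9.43 CPM in sink leaves, with every bud library above every leaf library (0.82 ± 0.26, adjusted p = 0.022). bZIP44 had 3.84, 3.98 and 3.06 CPM in buds, against 1.93, 1.91 and 1.21 CPM in sink leaves and was also higher in every bud library (1.09 ± 0.25, adjusted p = 0.004). bZIP1 was low, with 3.39, 3.002 and 3.14 CPM in buds, against 4.66, 3.89 and 4.65 CPM in sink leaves (-0.49 ± 0.17, adjusted p = 0.034). Leaving out single libraries ended several of these calls: that of bZIP1 in 5 of 6 cases (highest adjusted p = 0.11), that of bZIP53 in 4 of 6 (0.069) and that of bZIP11 in 2 of 6, without bud library 2 or leaf library 3 (0.078). The call of bZIP44 was kept in all 6. With upper quartile scaling 2 S1 genes rose and none fell, so both falls ended. None of the 4 C group partners bZIP9, bZIP10, bZIP25 and bZIP63 passed, with log2 differences between -0.19 and 0.57 and adjusted p from 0.052 to 0.40, and with upper quartile scaling 1 of them, bZIP9, rose. In wild type bZIP2 had 69.9 ± 8.12 CPM in buds and 91.1 ± 17.6 CPM in leaves, and none of the 5 S1 genes had an organ difference that differed between genotypes. This organ difference would not show a gene lowered alike in both organs, and levels were not tested between genotypes within an organ. Which S1 genes the plants lack is therefore not shown by these counts.

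Genes linked to bud repression or dormancy were mostly higher in buds: 6 of the 7 on this list rose and NCED3 fell. Whether these buds were closed or growing out was not tested. BRC1, a TCP transcription factor that represses bud outgrowth, had 14.5, 8.48 and 8.68 CPM in buds, against 0 CPM in all 3 leaf libraries. It was not counted in any mutant leaf library, which puts it at least 173-fold higher in buds against a floor of 3 counts over the group. Its homeodomain targets HB21 and HB40 had 3.17, 2.29 and 2.74 CPM and 1.27, 1.46 and 1.06 CPM in buds and were at 0 in all leaf libraries, which makes them at least 44.9-fold and 20.7-fold higher. HB53 had 3 leaf counts in all against 207 bud counts, a ratio of 42.0 (95% counting interval 14.2 to 206). BRC2, the second TCP of this kind, had 3.21, 3.72 and 3.47 CPM in buds, against 0.114, 0.0660 and 0.181 CPM in sink leaves (4.75 ± 0.35, adjusted p = 3.6e-06). DRM1, a marker of dormant buds, had 134, 98.4 and 80.7 CPM in buds, against 25.2, 26.4 and 19.2 CPM in sink leaves, with no overlap (2.13 ± 0.20, adjusted p = 1.5e-05). NCED3, which makes the precursor of abscisic acid and lies downstream of the HB genes in buds, went the other way: it had 2.01, 1.76 and 1.496 CPM in buds, against 7.34, 4.42 and 4.90 CPM in sink leaves (-1.68 ± 0.25, adjusted p = 0.0003). The list had a median log2 difference of 5.26, or 4.75 with genes at or near 0 set to their bound or count ratio. In wild type the same 6 rose, and NCED3 had 9.39 ± 3.96 CPM in buds and 6.41 ± 2.72 CPM in leaves without passing. The organ difference of NCED3 in the mutant minus that in wild type was -2.22 on the log2 scale, short of the threshold (adjusted p = 0.052). All 6 rising genes had a lower bud mean in the mutant than in wild type, for example 10.6 CPM against 20.8 CPM for BRC1 and 104 CPM against 271 CPM for DRM1, a difference between genotypes that was not tested here.

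**Figure D1:**
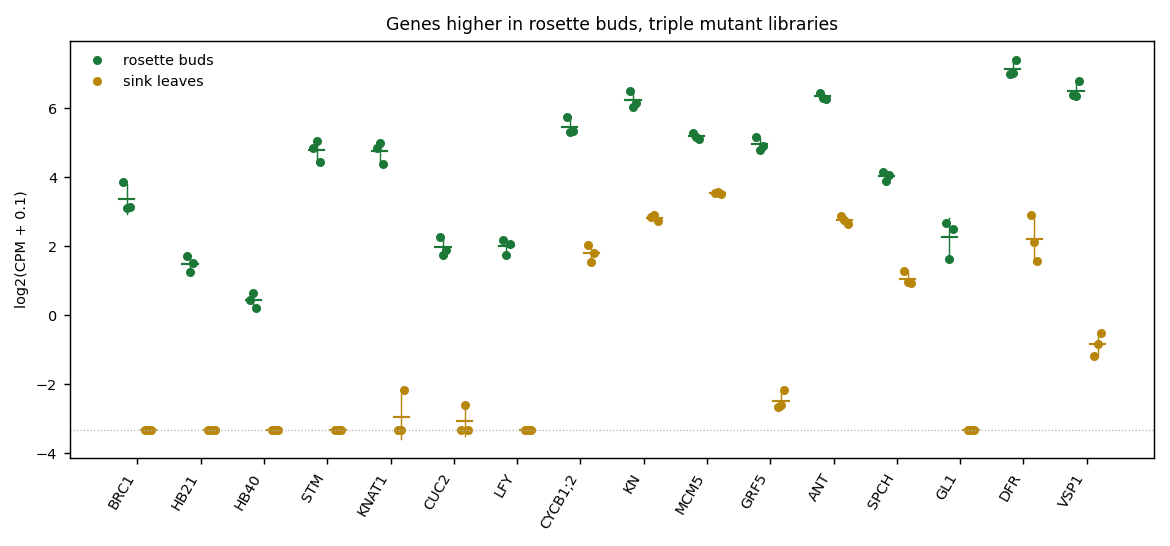
Levels of 16 genes in the 3 bud (green, left of each pair) and 3 sink leaf libraries (ochre, right) of the triple mutant, as log2(CPM + 0.1). Points are libraries, lines the mean, vertical bars 1 SD, and the dotted line marks 0 CPM; all bud points of each gene lie above all its leaf points, and BRC1, HB21, HB40, STM, LFY and GL1 lie at 0 in leaves.

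Meristem and boundary genes marked the buds. STM, the homeobox gene that keeps meristem cells undifferentiated, had 28.5, 33.1 and 21.4 CPM in buds, against 0 CPM in all 3 leaf libraries and was at least 454-fold higher in buds. KNAT1, a related homeobox gene, had 28.8, 31.7 and 20.9 CPM in buds, against 0, 0 and 0.121 CPM in sink leaves, with 2 leaf counts in all and a count ratio of 668 (95% counting interval 185 to 5516). KNAT6 rose as well (3.93 ± 0.25, adjusted p = 1.4e-06), and so did ATH1 and PNY, which encode partners of STM (2.37 and 1.37). Of 8 tested meristem genes 7 rose and 1 fell (median 3.15), while WUS (20 bud counts in all) and CLV3 (4) were too low to test. CUC1, CUC2 and CUC3, which set organ boundaries, had 2.61, 3.86 and 3.72 CPM on average in buds, against 0.0391, 0.0220 and 0.0220 CPM in leaves. LAS, needed to form axillary meristems, had 79 counts in buds and 0 in leaves (at least 16.05-fold). LOB had 25.7, 24.3 and 18.4 CPM in buds, against 0.0569, 0.0660 and 0.181 CPM in sink leaves (7.72 ± 0.31, adjusted p = 2.5e-07). In all 12 of 13 axillary and boundary genes rose and none fell at this threshold, with a median of 5.11, or 4.004 with bounds and ratios.

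The buds also carried inflorescence and early floral transcripts. LFY, the factor that gives flowers their identity, had 4.44, 3.27 and 4.05 CPM in buds, against 0 CPM in all 3 leaf libraries and was at least 64.4-fold higher. AP1, which acts with it, had 387 bud counts and none in leaves (at least 78.6-fold). TFL1, which keeps the inflorescence growing, rose (6.89 ± 0.757 CPM in buds and 0.125 ± 0.121 CPM in leaves; 5.74 ± 0.43, adjusted p = 3.7e-06), as did SPL9, SPL15 and SPL4, factors of the age pathway to flowering (2.52, 3.16 and 2.34). FT, the leaf-made flowering signal, had 6 counts in all leaf libraries and 0 in buds and was not tested. Of 16 tested flowering regulators 11 rose and 1 fell (median 2.08), and of 9 tested floral organ identity genes 6 rose and 1 fell (median 3.69). PI and AP3, which specify petals and stamens, stayed low at 4.44, 2.29 and 2.08 CPM and 3.25, 1.76 and 2.04 CPM in buds. The gene that fell, SEP4, had 3.62 ± 0.170 CPM in buds and 10.6 ± 0.561 CPM in leaves. FTM1, named for the floral transition at the meristem, had 30.0, 35.8 and 25.02 CPM in buds, against 0 CPM in all 3 leaf libraries, at least 497-fold higher.

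Every gene of the mitotic list rose in buds. These were 18 of 18 cyclin, mitotic kinase and cytokinesis genes, all by at least 2-fold, with a median log2 difference of 3.40 beside 0.04 for all tested genes. KN, the syntaxin that builds the cell plate, had 89.8, 65.4 and 70.6 CPM in buds, against 7.11, 7.32 and 6.53 CPM in sink leaves (3.41 ± 0.14, adjusted p = 2.9e-07). The kinesin HIK, needed for cytokinesis, had 56.0, 45.9 and 45.0 CPM in buds, against 4.32, 3.76 and 3.39 CPM in sink leaves (3.66 ± 0.14, adjusted p = 2.5e-07). CYCB1;2, a mitotic cyclin, had 53.4, 39.7 and 40.2 CPM in buds, against 3.98, 2.84 and 3.39 CPM in sink leaves. CDC20.1, an activator of the anaphase-promoting complex, averaged 70.8 ± 12.3 CPM in buds and 3.46 ± 0.372 CPM in leaves (4.34 ± 0.16, adjusted p = 2.3e-07). The organs did not overlap for any of these. DNA replication genes rose by less: 12 of 15 passed and none fell, with a median of 1.12. The helicase subunit MCM5 had 38.9, 35.5 and 34.4 CPM in buds, against 11.4, 11.7 and 11.2 CPM in sink leaves (1.65 ± 0.10, adjusted p = 8.8e-07). Among genes of cell cycle entry and exit 5 of 11 rose and 3 fell, beside 32.0% and 31.1% of all tested genes. The D-type cyclins CYCD3;1, CYCD3;2 and CYCD3;3, which drive entry into the cycle, rose (2.62, 2.17 and 3.42). The inhibitors KRP1 and SMR1 fell: KRP1 had 1.12, 1.69 and 1.39 CPM in buds, against 17.5, 12.4 and 12.3 CPM in sink leaves, and SMR1 averaged 11.7 ± 0.664 CPM in buds and 61.1 ± 5.06 CPM in leaves. In wild type the same 18 mitotic genes rose with a median of 2.67, and 1 of them, CYCB1;2, passed the test of the difference between genotypes (log2 1.17, adjusted p = 0.045). That call ended in 9 of the 12 fits that left out a library (highest adjusted p = 0.10).

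Promoter stretches are shown for mitotic cyclin genes and for MCM genes because both groups rose together. Each covers the 250 bases before the annotated gene start in RefSeq's TAIR10.1 assembly, 5′ to 3′ on the gene's strand. In the cyclin promoters the capitals mark AACGG or its reverse complement, the core of the element that MYB factors bind in mitotic genes. In the MCM promoters they mark TTTCCCGC or TTTGGCGC, forms of the E2F site, on either strand.
CYCB1;2, chr5:1861704-1861953, minus strand: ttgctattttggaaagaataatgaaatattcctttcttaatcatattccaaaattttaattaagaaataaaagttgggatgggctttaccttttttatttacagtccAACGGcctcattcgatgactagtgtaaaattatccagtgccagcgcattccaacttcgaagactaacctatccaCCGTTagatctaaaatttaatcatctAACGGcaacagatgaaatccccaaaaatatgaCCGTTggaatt
CYCB1;1, chr4:17624309-17624558, minus strand: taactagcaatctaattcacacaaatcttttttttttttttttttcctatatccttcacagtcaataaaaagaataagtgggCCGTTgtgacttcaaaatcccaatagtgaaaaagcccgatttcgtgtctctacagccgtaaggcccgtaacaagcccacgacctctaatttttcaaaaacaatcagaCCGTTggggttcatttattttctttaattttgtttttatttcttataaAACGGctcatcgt
CYCB2;2, chr4:16901346-16901595, plus strand: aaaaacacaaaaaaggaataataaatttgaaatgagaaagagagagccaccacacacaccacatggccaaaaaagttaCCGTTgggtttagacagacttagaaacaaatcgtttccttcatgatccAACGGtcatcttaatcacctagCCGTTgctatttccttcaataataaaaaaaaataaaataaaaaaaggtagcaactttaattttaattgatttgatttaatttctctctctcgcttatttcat
MCM5, chr2:3527501-3527750, minus strand: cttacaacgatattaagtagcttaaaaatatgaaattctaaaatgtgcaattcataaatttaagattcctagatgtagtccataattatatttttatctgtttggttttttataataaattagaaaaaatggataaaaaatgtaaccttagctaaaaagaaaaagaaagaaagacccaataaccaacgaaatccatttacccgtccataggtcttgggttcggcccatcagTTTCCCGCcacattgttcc
MCM4, chr2:7130730-7130979, minus strand: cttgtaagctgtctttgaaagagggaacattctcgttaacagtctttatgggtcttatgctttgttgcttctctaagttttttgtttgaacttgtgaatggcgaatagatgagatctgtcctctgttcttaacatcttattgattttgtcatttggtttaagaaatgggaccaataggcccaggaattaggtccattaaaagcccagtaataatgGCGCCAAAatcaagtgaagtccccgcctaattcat
MCM2, chr1:16969964-16970213, plus strand: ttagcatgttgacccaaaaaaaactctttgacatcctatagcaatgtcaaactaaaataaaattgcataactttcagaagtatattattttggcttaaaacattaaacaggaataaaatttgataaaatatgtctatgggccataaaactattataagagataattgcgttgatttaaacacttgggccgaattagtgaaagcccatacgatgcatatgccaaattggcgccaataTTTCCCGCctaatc
The AACGG core stood in 12 of 18 mitotic promoters (66.7%), against 21.8% of the promoters of all 19227 tested genes with a window and 23.0% of those that rose at least 2-fold. CYCB1;2 held 4 copies and CDC20.1 none. An E2F form stood in 7 of 15 replication promoters (46.7%), against 1.01% of all tested genes. Both are letter matches in this window and show no binding. The cyclins shown had 18.1, 12.8 and 13.4 CPM (CYCB1;1) and 11.4, 8.82 and 9.08 CPM (CYCB2;2) in buds, against 1.37, 1.25 and 1.21 CPM and 1.42, 0.924 and 1.15 CPM in leaves.

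Most leaf growth genes rose in buds, and most class CIN TCP genes fell. Of 19 leaf growth and polarity genes 16 rose and 2 fell (median 2.17). GIF1, a coactivator of cell proliferation, had 77.9, 59.8 and 64.8 CPM in buds, against 0.569, 0.858 and 1.09 CPM in sink leaves (6.32 ± 0.20, adjusted p = 1.4e-07). Its partners, the growth regulating factors GRF3, GRF4 and GRF5, rose as well (4.55, 4.72 and 8.46), and GRF5 was nearly absent from leaves (0.0569, 0.0660 and 0.121 CPM). ANT, which prolongs cell division in organs, had 86.7, 79.1 and 77.5 CPM in buds, against 7.28, 6.73 and 6.11 CPM in sink leaves. Class CIN TCP factors are known to push leaf cells to stop dividing, and 6 of the 10 genes of that list fell while TCP2 rose (0.63; median of the list -0.82). TCP4 had 41.4, 39.5 and 44.9 CPM in buds, against 86.4, 82.0 and 89.7 CPM in sink leaves (-1.05 ± 0.09, adjusted p = 8.3e-06), and TCP13 averaged 6.09 ± 0.428 CPM in buds and 17.9 ± 1.26 CPM in leaves. Of 14 stomatal and guard cell genes 6 rose and 7 fell (median -0.57), beside 32.0% and 31.1% of all tested genes. SPCH, which starts the stomatal lineage, rose (16.3 ± 1.402 CPM in buds and 1.998 ± 0.290 CPM in leaves; 3.01 ± 0.15, adjusted p = 4.7e-07), and so did TMM, EPF2, POLAR, BASL and MUTE, which act in the lineage (2.04, 3.91, 4.19, 2.74 and 1.25). FAMA, which completes guard cells, fell (-0.99), as did MYB60, HT1, KAT1 and SLAC1 of guard cells (-2.92, -3.33, -2.14 and -1.06). The peptide genes EPF1 and EPFL9 fell as well (-1.87 and -0.86). Of 8 trichome genes 5 rose and 2 fell (median 2.01). GL1, an activator of trichome initiation, had 6.27, 3.002 and 5.54 CPM in buds, against 0 CPM in all 3 leaf libraries, at least 81.2-fold higher, and GL3 and TTG2, further activators, rose (3.22 and 2.60). TTG1, their partner, fell (-0.62). The inhibitors moved apart: CPC and ETC1 rose (2.24 and 1.78) and TRY fell (-2.67).

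Nuclear photosynthesis genes were lower in buds. All 27 photosystem and light harvesting genes fell by at least 2-fold (median -2.56), as did all 17 Calvin cycle genes (median -2.91) and all 9 photorespiration genes (median -2.87). LHCB2.1, a light harvesting protein, had 745, 862 and 909 CPM in buds, against 5358, 5448 and 5457 CPM in sink leaves. PRK, which regenerates the acceptor of CO2, had 309.8, 395 and 404 CPM in buds, against 2733, 2744 and 2764 CPM in sink leaves (-2.91 ± 0.13, adjusted p = 3.5e-07). The deepest fall of these lists was that of CAT2, the leaf peroxisome catalase, with 34.7, 44.2 and 46.9 CPM in buds, against 2587, 2499 and 2460.1 CPM in sink leaves (-5.92 ± 0.16, adjusted p = 1.1e-07). The lowest leaf library stood far above the highest bud library for all 3. Of 13 chlorophyll synthesis genes 11 fell and none rose (median -1.58), with 1 higher under upper quartile scaling, and GLK1, a regulator of chloroplast development, averaged 88.3 ± 10.3 CPM in buds and 344 ± 10.9 CPM in leaves. Of 74 tested genes of the chloroplast genome 66 fell (median -2.47). The locus ATCG00490 averaged 8.88 ± 0.335 CPM in buds and 61.2 ± 9.31 CPM in leaves. Since the libraries were enriched for poly-A RNA, such loci report only the part of their transcripts that was captured. Near-identical family members, such as the small Rubisco subunit and LHCB genes, may share counts, so single members are less certain than the list. Wild-type medians were close to those of the mutant, at -2.54, -2.85 and -2.77 for the 3 nuclear lists. The genes of cytosolic ribosomal proteins leaned the other way, with 66 of 121 higher and 12 lower in buds (median 0.40), and 89 and 9 with upper quartile scaling. In wild type 96 rose and 11 fell (median 0.80).

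**Figure D2:**
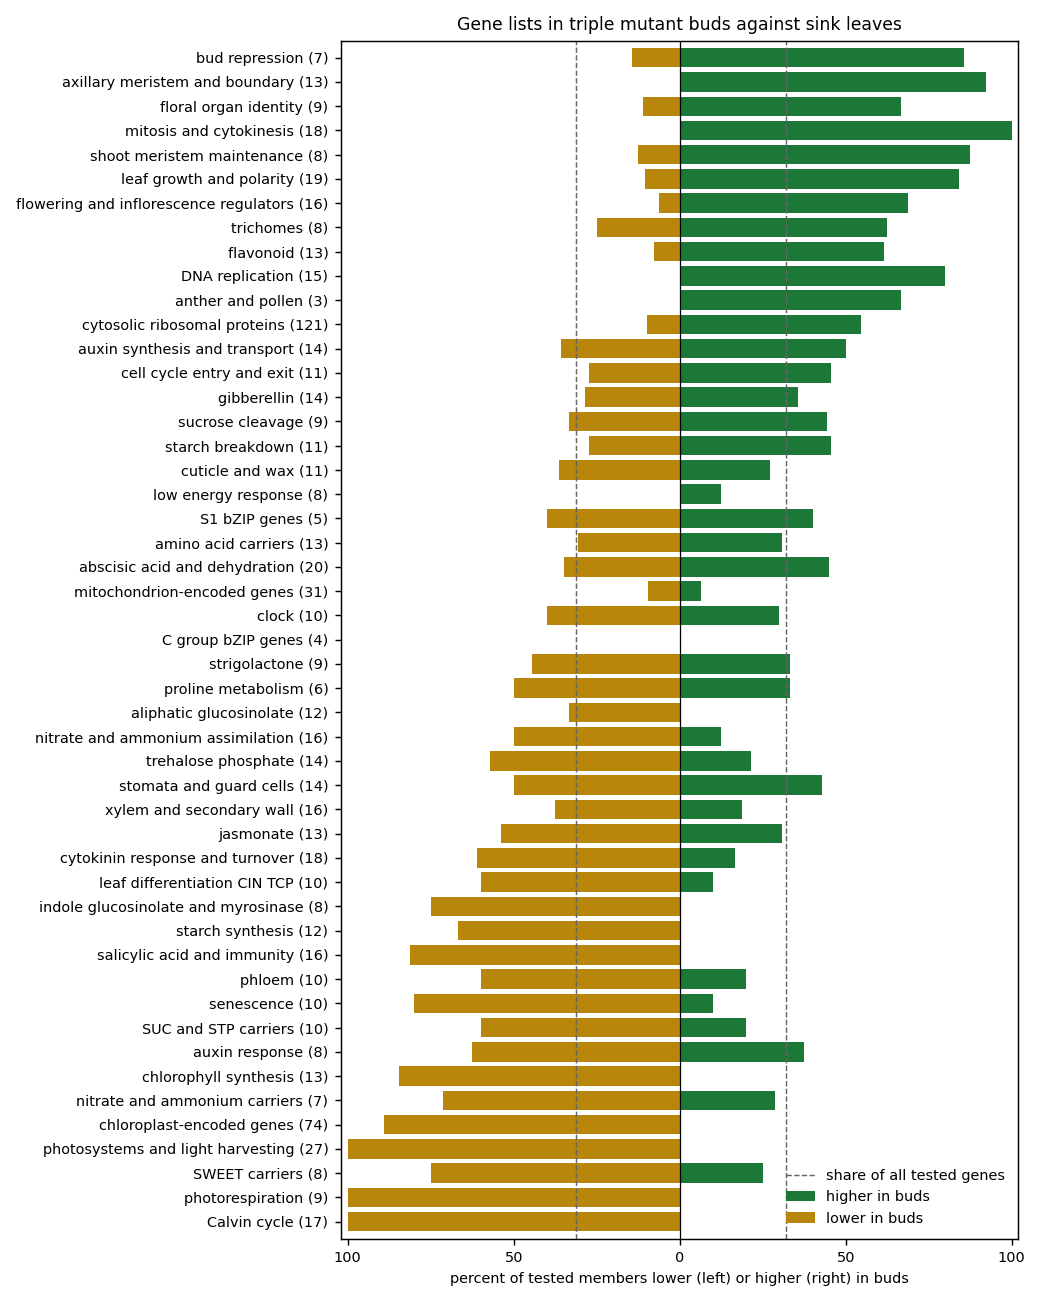
Percent of tested members of each gene list that rose (green, right) or fell (ochre, left) in triple mutant buds against sink leaves, lists in order of their median log2 difference, with the number tested in brackets. Dashed lines mark the shares of all tested genes (32.0% and 31.1%); the mitotic list reaches 100% on the right, and the photosystem, Calvin cycle and photorespiration lists reach 100% on the left.

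Sugar export genes marked the sink leaves. SWEET11 and SWEET12 carry sucrose out of phloem parenchyma cells. SWEET11 had 1.19, 1.84 and 2.08 CPM in buds, against 242, 166 and 110.4 CPM in sink leaves, and the highest bud value was far under the lowest leaf value (-6.67 ± 0.34, adjusted p = 4.8e-07). SWEET12 had 0.671, 2.59 and 1.02 CPM in buds, against 91.1, 62.0 and 41.8 CPM in sink leaves (-5.52 ± 0.44, adjusted p = 5.3e-06). SUC2, which loads sucrose into the phloem, had 34.1, 40.05 and 30.6 CPM in buds, against 408, 247 and 198 CPM in sink leaves (-3.04 ± 0.26, adjusted p = 8.2e-06). Leaf library 1 was the highest and leaf library 3 the lowest for all 3 transporters. SWEET16 and SWEET17 rose (1.55 and 0.64) while SWEET1, SWEET2, SWEET4 and SWEET13 fell, so 6 of 8 tested SWEET genes fell and 2 rose (median -2.73). SWEET10, SWEET14 and SWEET15 had 9, 27 and 7 counts in buds and 0 in leaves, SWEET9 had none in either, and with SWEET5 they stayed untested. SUC4, a tonoplast sucrose exporter, rose (20.8 ± 3.61 CPM in buds and 6.94 ± 1.89 CPM in leaves; 1.57 ± 0.21, adjusted p = 0.00017), and SUC1, STP1, STP4 and STP14 fell (-1.82, -1.55, -1.42 and -1.54). ATSPS4F, a sucrose phosphate synthase of leaves, had 0.634, 1.802 and 1.496 CPM in buds, against 335, 187 and 263 CPM in sink leaves (-7.65 ± 0.35, adjusted p = 3.5e-07). Among genes with a RefSeq symbol, at least 20 CPM in the higher organ and no overlap between organs, it fell the furthest. Of 10 phloem genes 6 were lower and 2 higher in buds (median -0.91), or 4 lower and 3 higher with upper quartile scaling. In wild type 4 were lower and 3 higher.

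Enzymes that break sucrose down were mixed, with 4 of 9 higher and 3 lower, beside 32.0% and 31.1% of all tested genes. SUS4, a sucrose synthase, had 3.51, 8.56 and 4.01 CPM in buds, against 0.171, 0.198 and 0.363 CPM in sink leaves (4.41 ± 0.51, adjusted p = 6.8e-05), and SUS3 rose by less (1.13). The vacuolar invertase BFRUCT4 and the cell wall invertase CWINV1 fell (-1.17 and -1.703). In the trehalose 6-phosphate pathway, which signals sucrose status, 3 of 14 genes rose and 8 fell, or 3 and 4 with upper quartile scaling. TPPI, a phosphatase, had 5.04, 3.12 and 3.10 CPM in buds, against 0.171, 0.198 and 0.0604 CPM in sink leaves (4.65 ± 0.43, adjusted p = 1.6e-05). TRE1, the trehalase, fell (1.01 ± 0.326 CPM in buds and 4.64 ± 0.644 CPM in leaves). Starch synthesis genes fell in 8 of 12 cases and rose in none (median -0.89), or 7 and 1 with upper quartile scaling. GBSS1, which makes amylose, averaged 111 ± 15.2 CPM in buds and 602 ± 51.5 CPM in leaves (-2.45 ± 0.13, adjusted p = 5.5e-07). Of starch breakdown genes BAM3, the main leaf beta-amylase, had 97.8, 146 and 166 CPM in buds, against 1692, 1858 and 2017 CPM in sink leaves (-3.78 ± 0.20, adjusted p = 5.7e-07), while DPE1, PHS1 and PHS2 rose by 1.03, 0.65 and 0.75.

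**Figure D3:**
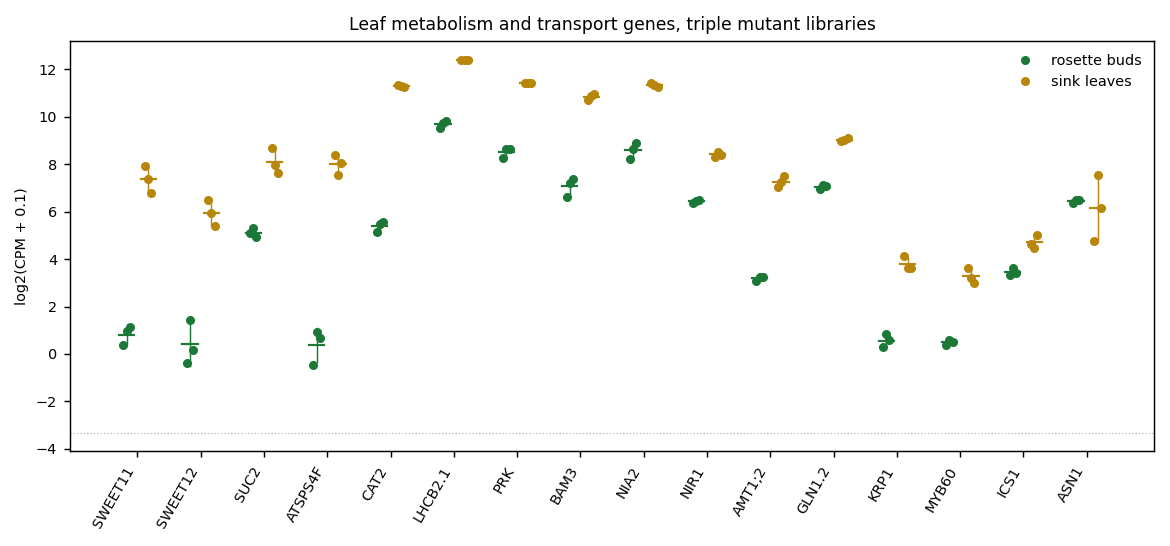
Levels of 16 genes of leaf metabolism and transport in the 3 bud (green, left of each pair) and 3 sink leaf libraries (ochre, right) of the triple mutant, as log2(CPM + 0.1), drawn as in the plot of bud genes. For every gene except ASN1 all bud points lie below all leaf points; ASN1 had 27.02, 189 and 70.8 CPM in the leaf libraries and overlaps.

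Most nitrate and ammonium carriers and several assimilation genes were lower in buds. NIA2, the main nitrate reductase, had 299, 398 and 474 CPM in buds, against 2709, 2629 and 2474 CPM in sink leaves (-2.75 ± 0.17, adjusted p = 1.3e-06). The next enzymes of the route fell too: nitrite reductase NIR1 averaged 86.6 ± 3.88 CPM in buds and 341 ± 25.6 CPM in leaves, plastid glutamine synthetase GS2 396 ± 29.8 CPM in buds and 1764 ± 212 CPM in leaves and glutamate synthase GLU1 329.9 ± 25.2 CPM in buds and 1643 ± 186 CPM in leaves. The ammonium carrier AMT1;2 had 8.43, 9.31 and 9.48 CPM in buds, against 131, 151 and 183 CPM in sink leaves (-4.11 ± 0.15, adjusted p = 2.3e-07), and the nitrate carriers NRT1.1 and NRT1.7 fell (-2.35 and -2.56). The cytosolic glutamine synthetases moved apart, GLN1.3 upward (111 ± 7.98 CPM in buds and 32.9 ± 5.53 CPM in leaves) and GLN1.2 downward (133 ± 8.52 CPM in buds and 527 ± 19.5 CPM in leaves). In all 8 of 16 assimilation genes fell, 2 rose and 6 were not called (median -0.42), or 7 fell and 4 rose with upper quartile scaling. Of 7 carriers 5 fell and 2 rose (median -2.35). Over all tested genes 31.1% fell and 32.0% rose. Proline synthesis gene P5CS2 fell (66.5 ± 0.756 CPM in buds and 213 ± 22.1 CPM in leaves; -1.69 ± 0.10, adjusted p = 1.1e-06), while PRODH1, the proline dehydrogenase, had 62.3, 67.7 and 57.2 CPM in buds, against 36.6, 82.6 and 54.6 CPM in sink leaves and overlapped between organs. Amino acid carriers split evenly, 4 higher and 4 lower of 13, with AAP3 at 2.41 ± 0.336 CPM in buds and 0.167 ± 0.154 CPM in leaves and AAP5 at 13.3 ± 1.46 CPM in buds and 41.1 ± 4.81 CPM in leaves.

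ASN1 behaved differently in the mutant and in wild type. It encodes the asparagine synthetase that is known to rise when sugar is short. In the mutant it had 82.8, 88.9 and 91.1 CPM in buds, against 27.02, 189 and 70.8 CPM in sink leaves, and the organs overlapped (-0.14 ± 0.52, adjusted p = 0.83). In wild type it had 127, 125 and 165 CPM in buds, against 5.40, 10.1 and 6.33 CPM in sink leaves, with buds far above leaves (log2 4.25). The difference between genotypes in this organ contrast was -4.38 ± 0.70 (adjusted p = 0.02). It kept its sign in all 12 fits without a library, between -4.81 and -3.41, and lost the call without mutant bud library 2 or wild-type bud library 1 (highest adjusted p = 0.059). The low energy genes DIN10, DIN1 and PRODH1 were, like ASN1, highest in leaf library 2 among the mutant leaf libraries: DIN10 had 38.1, 84.8 and 38.8 CPM there and DIN1 2.33, 12.6 and 2.54 CPM, in the order of libraries 1 to 3. Without that library the organ difference of ASN1 was 0.81 (adjusted p = 0.069). GAT1_2.1, a glutamine amidotransferase gene, overlapped between organs, with 4.34 ± 1.06 CPM in buds and 4.64 ± 0.379 CPM in leaves. The 250 bases before the annotated start of ASN1 are shown because the G-box, marked in capitals, is the kind of ACGT-containing element that bZIP factors bind.
ASN1, chr3:17441432-17441681, minus strand: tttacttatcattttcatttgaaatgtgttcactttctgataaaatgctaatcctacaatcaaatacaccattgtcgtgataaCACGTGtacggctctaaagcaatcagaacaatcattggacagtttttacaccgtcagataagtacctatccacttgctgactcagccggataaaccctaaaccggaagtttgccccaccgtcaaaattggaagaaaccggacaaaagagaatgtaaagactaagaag
A CACGTG stood in 7.31% of the promoters of all tested genes, which makes ASN1 1 of 1406 such genes.

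Hormone genes moved in both directions, as did all tested genes, of which 32.0% rose and 31.1% fell. In the auxin lists, YUC4, a synthesis enzyme, had 3.95, 3.57 and 3.90 CPM in buds, against 0.171, 0.0660 and 0.121 CPM in sink leaves (4.89 ± 0.34, adjusted p = 2.3e-06), and YUC1 had 147 counts in buds and none in leaves (at least 29.9-fold). MP, the response factor that founds new organs, had 107, 79.4 and 80.4 CPM in buds, against 12.5, 8.78 and 14.9 CPM in sink leaves (2.87 ± 0.19, adjusted p = 2.1e-06), and PID, a kinase that steers auxin carriers, rose (1.73). The carriers PIN3 and PIN4 fell (-1.21 and -1.31), as did the response genes IAA2, IAA3 and IAA19 (-2.34, -1.303 and -1.83), while GH3.3 rose (4.22). Of 18 tested cytokinin genes 11 fell and 3 rose (median -0.73). Among them the response regulators ARR4 and ARR16 fell: ARR4 averaged 57.2 ± 11.6 CPM in buds and 214 ± 26.3 CPM in leaves and ARR16 3.32 ± 1.03 CPM in buds and 14.9 ± 1.27 CPM in leaves. The synthesis gene IPT3 fell (-2.58), the oxidase CKX1 rose (22.0 ± 3.31 CPM in buds and 1.35 ± 0.311 CPM in leaves; 3.999 ± 0.19, adjusted p = 3.9e-07), and the receptor AHK4 rose (1.39). Strigolactone synthesis showed both directions: D27 fell (0.595 ± 0.119 CPM in buds and 6.02 ± 0.453 CPM in leaves), CCD8 and LBO1 rose (3.33 and 3.93), and the receptor D14 fell (-1.69). Among abscisic acid genes 9 of 20 rose and 7 fell, with a median log2 difference of -0.09. On the bud side HAI1 had 23.6, 16.6 and 20.6 CPM in buds, against 0.228, 1.85 and 1.39 CPM in sink leaves. RD29A had 59.8 ± 15.1 CPM in buds and 14.7 ± 5.25 CPM in leaves. On the leaf side ABI2 had 5.70 ± 0.125 CPM in buds and 12.6 ± 0.637 CPM in leaves.

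Most defence and ageing genes on the lists stood lower in buds. Of 16 tested salicylic acid and immunity genes 13 fell and none rose (median -0.90). ICS1, which makes salicylic acid precursor, had 9.96, 12.2 and 10.5 CPM in buds, against 25.1, 21.9 and 32.7 CPM in sink leaves (-1.303 ± 0.16, adjusted p = 8.4e-05). PR2, a secreted glucanase, had 39.5, 71.4 and 85.0 CPM in buds, against 286, 361 and 343 CPM in sink leaves, and ACD6, an ankyrin protein of immunity, averaged 114 ± 35.1 CPM in buds and 1053 ± 9.50 CPM in leaves. In wild type all 17 tested fell with a median of -2.68. ICS1 alone of the list passed the test between genotypes (log2 1.62, adjusted p = 0.049), and it lost that call in 9 of 12 fits without a library (highest adjusted p = 0.13). Of 10 tested senescence genes 8 fell, among them the chlorophyll breakdown genes NYE1 and PAO (-1.17 and -0.999), and 1 rose. Other ageing genes went the other way. ORE1, a NAC factor of leaf senescence, rose in mutant buds, as given below. SAG12, a senescence marker, had 265 counts over the mutant bud libraries and 2 over the mutant leaf libraries and was not tested. Jasmonate genes were mixed: the synthesis enzymes LOX2 and AOS fell (-1.91 and -1.68), while VSP1, a vegetative storage protein, had 84.0, 81.0 and 109.9 CPM in buds, against 0.341, 0.462 and 0.604 CPM in sink leaves (7.58 ± 0.22, adjusted p = 1.3e-07). Anthocyanin genes were on the bud side, with 8 of 13 flavonoid genes higher and 1 lower (median 1.67). DFR, the committed step to anthocyanin, had 126, 128 and 169 CPM in buds, against 7.45, 4.29 and 2.84 CPM in sink leaves (4.83 ± 0.29, adjusted p = 1.1e-06), and its regulators PAP1 and TT8 rose (3.07 and 4.50). Of 8 indole glucosinolate and myrosinase genes 6 fell and none rose, or 5 and 1 with upper quartile scaling. CYP81F4, a P450 outside this list that modifies indole glucosinolates, had 23.2, 75.7 and 66.8 CPM in buds, against 0, 0 and 0.363 CPM in sink leaves. Wax genes moved apart, with CER1 of alkane formation at 119.9 ± 35.7 CPM in buds and 7.23 ± 3.79 CPM in leaves and CUT1 of chain elongation at 246 ± 40.2 CPM in buds and 592 ± 108 CPM in leaves.

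Clock genes differed between the organs too, and the labels give no harvest hour. The morning genes CCA1 and LHY were lower in buds (333 ± 18.2 CPM in buds and 694 ± 77.8 CPM in leaves for CCA1; 565 ± 20.5 CPM in buds and 1221 ± 146 CPM in leaves for LHY), and TOC1, an evening gene, was higher (56.6 ± 2.83 CPM in buds and 20.4 ± 2.15 CPM in leaves). Wild type had the same directions for these 3, with log2 -1.02, -1.02 and 1.998. Their part in the other differences was not tested.

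The largest changes included genes outside these lists. Only called genes with a RefSeq symbol, at least 20 CPM in the higher organ and no overlap between organs were ranked. CYP78A5, a cytochrome P450 of organ growth, had 57.8, 48.6 and 53.4 CPM in buds, against 0 CPM in all 3 leaf libraries and was at least 875-fold higher in buds. CYP706A3, another P450, had 51.5 ± 13.5 CPM in buds and 0.0391 ± 0.0339 CPM in leaves, and LTP3, a lipid transfer protein, had 16.1, 29.9 and 41.0 CPM in buds, against 0, 0.0660 and 0.0604 CPM in sink leaves. TCP1 rose (35.9 ± 6.30 CPM in buds and 0.1002 ± 0.0299 CPM in leaves; 8.37 ± 0.27, adjusted p = 1.4e-07), and CYP77B1 and CYP81F4 completed the list of the 10 largest rises with FTM1, STM, KNAT1 and GRF5. On the leaf side, FSD1, an iron superoxide dismutase of chloroplasts, had 2.98, 9.83 and 4.56 CPM in buds, against 363, 501 and 458 CPM in sink leaves (-6.26 ± 0.40, adjusted p = 1.4e-06). CRK21, a receptor-like kinase, averaged 0.954 ± 0.187 CPM in buds and 81.1 ± 6.70 CPM in leaves, NCED4, a carotenoid cleavage enzyme, 6.04 ± 0.866 CPM in buds and 309.7 ± 104 CPM in leaves, and MES18, a methyl esterase, 0.730 ± 0.0866 CPM in buds and 36.8 ± 4.40 CPM in leaves. PCR1, CYP71A22 and CYP706A6 completed the 10 largest falls with ATSPS4F, SWEET11 and CAT2.

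The organ differences of mutant and wild type were close to each other for most genes. In wild type 13056 of 20003 tested genes were called (65.3%), 6719 higher (33.6%) and 6337 lower (31.7%) in buds. Over 19613 genes tested in both genotypes the log2 differences had a Pearson r of 0.938 across genes, which are not independent replicates. Of the mutant's 12391 calls among these, 85.1% were called in the same direction in wild type, and of the 12816 wild-type calls 82.3% were called in the same direction in the mutant. Opposite calls were made for 52 genes. The genotypes share no library in this count. The median size of the difference was 0.56 in the mutant and 0.65 in wild type on the log2 scale. Tested directly in a fit of all 12 libraries, the organ difference differed between genotypes for 185 of 20352 genes (0.909%), 87 higher (0.427%) and 98 lower (0.482%) in the mutant. By at least 2-fold, 66 were higher (0.324%) and 49 lower (0.241%). The count moved with single libraries. It was 9 genes without mutant bud library 2, 68 without 1 and 53 without 3. It was 506 without mutant leaf library 1, 57 without 2 and 42 without 3. It was 16, 77 and 64 without wild-type bud libraries 1, 2 and 3, and 225, 94 and 502 without wild-type leaf libraries 1, 2 and 3. DESeq2 called 892 genes. At an unadjusted p under 0.05 the edgeR fit had 3272.

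For 166 of these 185 genes the gap between mutant and wild-type leaves was larger than that between mutant and wild-type buds, with median gaps of 1.24 and 0.33 in log2(CPM + 0.5). Among genes with a RefSeq symbol, Hsp70-2, a cytosolic heat shock chaperone, had the smallest p. It had 48.9 ± 1.16 CPM in buds and 45.4 ± 5.36 CPM in leaves in the mutant, against 40.9 ± 2.64 CPM in buds and 199.9 ± 49.0 CPM in leaves in wild type (difference 2.395 ± 0.21, adjusted p = 0.00068). The libraries of mutant buds, mutant leaves and wild-type buds lay between 38.6 and 51.6 CPM, and all 3 wild-type leaf libraries at 163 CPM or above. LHT1, an amino acid importer, had 5.92 ± 2.24 CPM in buds and 11.8 ± 2.39 CPM in leaves in the mutant, against 6.28 ± 0.745 CPM in buds and 62.1 ± 8.93 CPM in leaves in wild type (difference 2.31, adjusted p = 0.014). ORE1, a NAC factor of leaf senescence, rose in mutant buds (4.07, 1.99 and 3.21 CPM in buds, against 0.796, 0.198 and 0.121 CPM in sink leaves) and fell in wild-type buds (5.61 ± 1.60 CPM in buds and 9.41 ± 2.41 CPM in leaves). On the other side, Cpn60beta2, a chloroplast chaperonin, fell in mutant buds (61.7, 71.3 and 62.1 CPM in buds, against 80.8, 113 and 108 CPM in sink leaves) and rose in wild-type buds (47.7 ± 3.84 CPM in buds and 20.9 ± 3.79 CPM in leaves; difference -1.82, adjusted p = 0.0048). The calls of Hsp70-2, Cpn60beta2 and SUFE2, a protein of sulfur supply, held in all 12 fits without a library. Those of LHT1 and ORE1 ended in 2 and 3 of them (highest adjusted p = 0.051 and 0.057).

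Nitrogen assimilation enzymes were among the genes that differed. NIR1 fell further in mutant buds (difference -0.77, adjusted p = 0.031). GLT1, the NADH glutamate synthase, had 602 ± 43.6 CPM in buds and 504 ± 16.6 CPM in leaves in the mutant, against 536 ± 40.9 CPM in buds and 247 ± 24.7 CPM in leaves in wild type (difference -0.86, adjusted p = 0.021). With ASN1 these are the 3 lower ones of the 16 assimilation genes. GLN1.1, a cytosolic glutamine synthetase, was the 1 higher one (difference 1.13, adjusted p = 0.02). NIR1, GLT1 and GLN1.1 lost the call in 8, 7 and 5 of the 12 fits without a library (highest adjusted p = 0.083, 0.066 and 0.059). The hexose importers STP13 and STP1 were higher in this contrast (1.76 and 0.99), with calls that ended in 7 and 9 of the 12 fits (highest adjusted p = 0.081 and 0.12). STP13 had 10.5 ± 0.481 CPM in buds and 6.55 ± 1.65 CPM in leaves in the mutant, against 14.5 ± 1.27 CPM in buds and 30.4 ± 12.9 CPM in leaves in wild type. EPFL9, the stomata-promoting peptide, fell in mutant buds (8.58 ± 0.631 CPM in buds and 15.4 ± 1.77 CPM in leaves), against 9.21 ± 0.951 CPM in buds and 7.86 ± 0.215 CPM in leaves in wild type without a call there (difference -1.08, adjusted p = 0.02). Its call between genotypes ended in 3 of the 12 fits (highest adjusted p = 0.059).

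**Figure D4:**
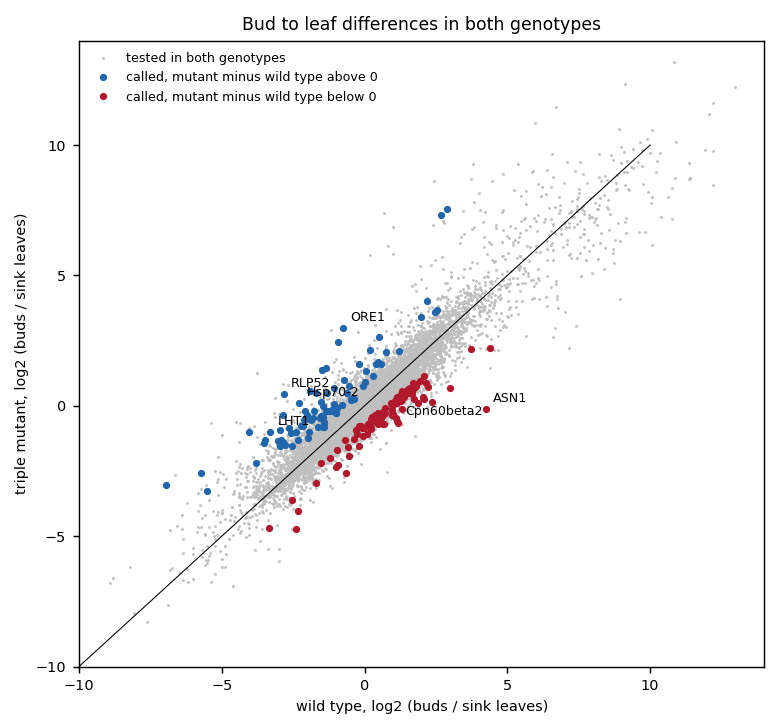
Log2(buds / sink leaves) of each gene tested in both genotypes, triple mutant on the vertical and wild type on the horizontal axis, with equal values on the line. Coloured points are genes whose difference between genotypes was called (blue higher, red lower in the mutant); ASN1 lies far right of the line, at -0.14 in the mutant and 4.25 in wild type.

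**Figure D5:**
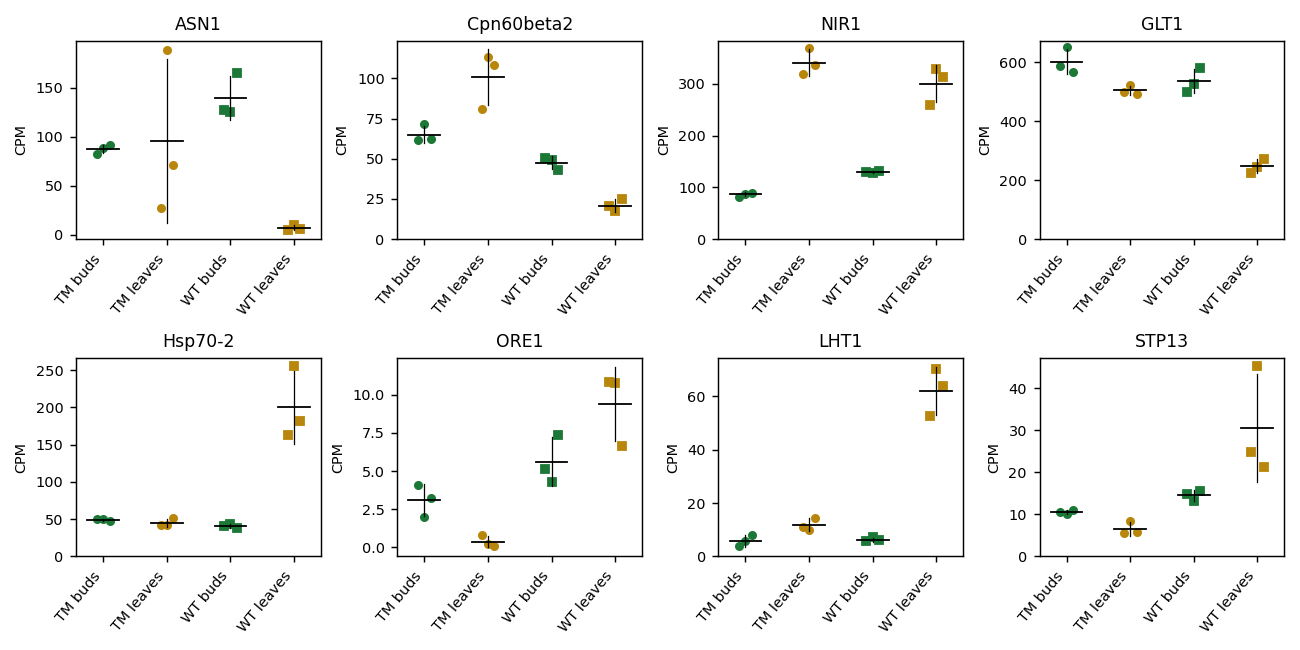
CPM of 8 genes with a called difference between genotypes in triple mutant (TM, circles) and wild-type (WT, squares) libraries, buds in green and sink leaves in ochre, with the mean as a line and 1 SD as a bar (3 libraries per group). In the lower row the wild-type leaves are the highest group for Hsp70-2, LHT1 and STP13, and in the upper row the wild-type leaves are the lowest group for ASN1, Cpn60beta2 and GLT1.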

How the data were processed

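Poly-A RNA (500 ng of total RNA per library) was sequenced from stranded libraries, per the labels' protocols. The authors deposited whole-number counts per locus, one table for each tissue and mutant with its wild type, unnormalized. Per the submitters' processing notes, whose roles are not stated, the tools were DESeq2, edgeR, Salmon 0.7.2, R 3.5.1 and SAMtools 0.1.18, on TAIR10. Whether strand was used in counting is not stated. The 2 tables used held 12 libraries of 19480031 to 24256840 counts and 28775 loci, of which 10588 had a symbol in RefSeq's TAIR10.1 table.
Genes were filtered with filterByExpr, scaled by TMM and tested with edgeR 4.0.16's quasi-likelihood test (R 4.3.3) within each genotype over 6 libraries. The genotype by tissue term was fitted over 12. Benjamini-Hochberg adjusted p under 0.05 was the threshold. SE is the log2 change divided by the root of its F statistic. CPM values use TMM factors over the 12 libraries, which were 1.30 to 1.34 in mutant buds and 0.78 to 0.83 in mutant leaves. On simulated counts the mutant fit recovered 75.3% of 2-fold and 97.0% of 4-fold changes (19541 genes), and the genotype by tissue term 52.0% and 90.0% (20070 genes). Unchanged genes were called 17 times in the mutant fit and 4 times for the term. In the mutant fit only 97 genes changed 2-fold and 99 changed 4-fold, and all others had the same level in every group. In the data 63.1% of genes were called, so recovery there may differ. Intervals and floors cover counting error only.
Lists held 587 of 594 intended memberships, since the reference table gave no matching symbol for the other 7. The members and lists were chosen with earlier results of these data known. Named genes were the S1 bZIP, bud repression and SWEET genes, ASN1, PRODH1 and GAT1_2.1, up to 6 members per list by p, genes at or near 0, the 10 largest changes in each direction, and the 10 smallest p of the genotype by tissue term in each direction. The rankings by size of change and by p of that term covered only genes with a RefSeq symbol. GLT1, GLN1.1 and STP13 were added after their values were seen. The text also names BASL, MUTE, HT1, KAT1, SLAC1, EPF1, ETC1, CYCB1;1 and CYCB2;2 beyond this rule. Their calls in the mutant were not followed over the fits without a library. Alternatives were other scalings, no filter, DESeq2 1.42.0, a replicate block, a common fit, a test against 2-fold, leaving out organelle loci and leaving out each library.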

Additional observations from a re-analysis of the deposited data

Results flagged for a closer look

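The bud to leaf difference differed between triple mutant and wild type for 185 genes in edgeR's test of the genotype by tissue term, and the values below are log2 differences of the mutant minus those of wild type. On the higher side, RLP52 and RLP41, which encode receptor-like proteins, had 3.29 and 1.63. ORE1 had 3.74, Hsp70-2 2.4, LHT1 2.31 and SUFE2 2.04. PP2-A13, a phloem protein, had 1.90, and STP13 and STP1 had 1.76 and 0.99. ICS1 had 1.62 and CYP81D8, a cytochrome P450, 1.58. SDR3, a short-chain dehydrogenase, had 1.34, KCS2, an enzyme of wax and suberin chain elongation, 1.33, CYCB1;2 1.17 and GLN1.1 1.13.
On the lower side, ASN1 had -4.38. ADS4, a fatty acid desaturase family member, had -2.14, Cpn60beta2 -1.82 and GA2OX2, which inactivates gibberellin, -1.75. HDA3, a histone deacetylase, had -1.46, PRIN2, a plastid gene expression factor, -1.37, and EPFL9 -1.08. UPM1, a siroheme synthesis enzyme, had -1.02, PAP29, a purple acid phosphatase, -1.02, EDA25 -0.87, GLT1 -0.86 and NIR1 -0.77. All 12 fits that each left out a library kept the calls of Hsp70-2, Cpn60beta2 and SUFE2. CYCB1;2, ICS1 and STP1 kept theirs in 3 of 12, NIR1 in 4, and GLT1 and STP13 in 5.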

How the results depend on the processing

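The counts of genes called in the mutant and in wild type stayed within 1.5 times their value under other scalings, DESeq2, no filter, the replicate block, a common fit and without organelle loci. A test against 2-fold gave 4079 genes in the mutant (1840 higher, 2239 lower) and 4501 in wild type (2081 higher, 2420 lower). The difference between genotypes was less stable: DESeq2 called 892 genes (474 higher, 418 lower; at least 2-fold 235 and 105). Same-numbered mutant buds and leaves correlated at 0.021, 0.043 and 0.172 in their deviations from group means, and not each correlated best with its own number. With 3 libraries a group these correlations cannot decide whether same-numbered samples were paired, and the labels state no pairing. With the replicate block 127 genes were called in the difference, 63 higher and 64 lower, and 12493 in the mutant. Leaving out 1 library gave 11033 to 12571 genes in the mutant (5493 to 6378 higher, 5540 to 6193 lower; at least 2-fold 2712 to 3037 and 3037 to 3280). In wild type it gave 11727 to 13087 (5926 to 6736 and 5801 to 6351; at least 2-fold 3224 to 3564 and 3356 to 3559). In the difference it gave 9 to 506 (4 to 236 and 4 to 273; at least 2-fold 4 to 140 and 3 to 108). Among the genes picked by the naming rule, reversals in the mutant touched only genes that were not called. Upper quartile scaling turned GAT1_2.1 (0.089), bZIP2 (0.20), KIN10 (0.11), ASN1 (0.059), bZIP25 (0.097), bZIP10 (0.035), CYP81D8 (0.018) and bZIP63 (0.012). No filter turned bZIP2 (0.011) and the replicate block ASN1 (0.26). Without single libraries the log2 difference ran between -0.24 and 0.078 for GAT1_2.1, -0.052 and 0.046 for bZIP2, -0.10 and 0.30 for GA2OX2, and -0.16 and 0.43 for PRODH1. It ran between -0.58 and 0.81 for ASN1, -1.16 and 0.45 for DIN1, and -0.35 and 0.039 for MYB28. ASN1 and DIN1 turned positive without leaf library 2. The cause was not tested. With 3 libraries a group, the genotype by tissue term recovered 52.0% of 2-fold changes in a simulation with few changed genes, which limits what the difference can show.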

Other observations

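Families named by the RefSeq product text gave further counts, and the families were chosen after their values were seen. Of 32 tested peroxidases, which act largely in the cell wall, 20 rose and 5 fell in mutant buds against leaves (median log2 1.61). Of 25 AP2/B3-like factors 15 rose and 4 fell (median 1.69), of 30 histones 18 rose and 4 fell (median 0.48), and of 23 glycosyl hydrolase family 17 proteins 14 rose and 2 fell (median 0.63). On the leaf side, 28 of 49 SAUR-like auxin-responsive genes fell and 7 rose (median -0.97). Of 35 thioredoxin family genes 22 fell and 2 rose (median -0.83), and of 48 TIR-NBS-LRR disease resistance genes 26 fell and 7 rose (median -0.51). The shares over all tested genes were 32.0% higher and 31.1% lower.
UMAMIT14 and UMAMIT29, amino acid exporters, had 62 and 63 counts in mutant buds and 0 in mutant leaves.
The TGGGCC element stood in the 250-base promoters of 56 of 121 tested ribosomal protein genes (46.3%) and 8 of 15 replication genes (53.3%), against 16.8% of all tested genes, counted on both strands.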
